A study of Mus musculus with 8 samples.

Results

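The aminoacyl-tRNA synthetase genes were followed across mouse pluripotent cells on 8 one-colour Agilent expression arrays. They were found by symbol, as the names formed from the amino acid letters together with Farsa, Farsb, Fars2, Ears2, Pars2 and Eprs, through the RefSeq transcript that each probe was designed for. This gave 38 genes with 46 probes, of which 21 code for cytosolic and 17 for mitochondrial enzymes, beside 22685 features tested in all. The probe of 37 genes was well above background on all 8 arrays, as was that of 19896 of all features. Nars2, the mitochondrial asparagine enzyme, was well above background on 0 of 8 arrays and was not tested.

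The arrays held RNA of 4 samples of OSKH induced pluripotent stem cells (iPSCs), 3 of OSK iPSCs, the study's control, and 1 of B6J-23 embryonic stem cells (ESC), all of strain C57BL/6J and collected undifferentiated. The labels do not spell out the factors. OSK is the usual name for reprogramming with Oct4, Sox2 and Klf4, and the H of this study is known to be the oocyte linker histone H1foo. Whether the arrays of a group came from separate lines, clones or cultures is not stated, so the spread between them, on which every p-value rests, may be technical. All 10 pluripotency markers listed were tested. Their ranges over the iPSC arrays lay between 0.18 log2 units for Pou5f1, which codes for Oct4, and 2.22 for Esrrb, with a median of 0.59. A level is the log2 of a probe's signal over its array's 75th percentile, so that 0 is that percentile, and levels of different probes are not set against each other.

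Each synthetase joins 1 amino acid to its transfer RNA, the step that fixes the genetic code before the ribosome acts. The cytosol and the mitochondrion use mostly separate enzymes, all coded in the nucleus. Several cytosolic enzymes sit together in the multisynthetase complex, held by the scaffold proteins that Aimp1, Aimp2 and Eef1e1 code for. When amino acids run short or the endoplasmic reticulum is stressed, phosphorylation of eIF2alpha raises translation of the transcription factor Atf4, which is known to switch on many cytosolic synthetase genes along with genes of amino acid synthesis and transport, through composite elements of the form TGATGNAA.

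Because that element links the synthetases to a known regulator, it was looked for in their promoters, on both strands of the 300 bases that RefSeq gives from 250 before to 50 after a gene's start (build GRCm38.p6). Of the 38 genes, 28 had such a window, 14 cytosolic and 14 mitochondrial. The letters TGATGNAA occurred in 5 of 14 cytosolic genes (35.7%) and in 0 of 14 mitochondrial genes, against 1219 of all 27025 genes with a window (4.51%). The form TGATGCAA, which is one case of it, occurred in 4 of the cytosolic genes and in 1.03% of all genes. Counted over windows in place of genes, the shares over all promoters were 3.97% and 0.895%. The 5 promoters are printed 5′ to 3′ on the gene's strand, with the matches in capitals. In all but Yars they stand as the reverse complement.
Aars, chr8:111033592-111033891, + strand: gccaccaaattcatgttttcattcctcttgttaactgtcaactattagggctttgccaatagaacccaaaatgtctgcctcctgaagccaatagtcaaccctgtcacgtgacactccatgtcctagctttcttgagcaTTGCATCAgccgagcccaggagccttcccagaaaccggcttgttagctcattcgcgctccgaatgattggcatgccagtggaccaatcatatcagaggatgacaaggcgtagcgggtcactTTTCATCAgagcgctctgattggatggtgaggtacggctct
Gars, chr6:55037751-55038050, + strand: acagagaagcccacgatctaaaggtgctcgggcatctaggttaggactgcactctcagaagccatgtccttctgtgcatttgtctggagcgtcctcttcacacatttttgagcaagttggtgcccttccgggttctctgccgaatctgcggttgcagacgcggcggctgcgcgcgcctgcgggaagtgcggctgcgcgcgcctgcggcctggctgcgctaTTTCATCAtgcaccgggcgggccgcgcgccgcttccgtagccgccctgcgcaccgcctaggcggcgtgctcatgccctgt
Iars, chr13:49681880-49682179, + strand: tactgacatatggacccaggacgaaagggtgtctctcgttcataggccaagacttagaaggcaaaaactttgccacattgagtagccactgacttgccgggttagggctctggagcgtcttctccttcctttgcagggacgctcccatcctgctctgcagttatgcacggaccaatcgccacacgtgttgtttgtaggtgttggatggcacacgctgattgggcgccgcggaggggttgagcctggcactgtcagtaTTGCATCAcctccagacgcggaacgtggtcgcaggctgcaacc
Tars, chr15:11399609-11399908, - strand: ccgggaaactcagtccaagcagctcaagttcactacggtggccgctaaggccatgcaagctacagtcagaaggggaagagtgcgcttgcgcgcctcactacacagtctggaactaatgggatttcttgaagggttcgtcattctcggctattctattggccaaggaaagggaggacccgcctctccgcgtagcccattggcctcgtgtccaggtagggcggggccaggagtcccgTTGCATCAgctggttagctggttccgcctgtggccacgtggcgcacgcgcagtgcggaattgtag
Yars, chr4:129189653-129189952, + strand: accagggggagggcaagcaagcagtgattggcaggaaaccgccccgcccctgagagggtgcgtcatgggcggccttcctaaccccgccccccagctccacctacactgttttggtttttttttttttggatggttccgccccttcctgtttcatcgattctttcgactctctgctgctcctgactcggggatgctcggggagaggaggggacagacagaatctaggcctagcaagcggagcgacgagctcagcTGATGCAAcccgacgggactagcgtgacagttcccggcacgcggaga
Aars, the alanine enzyme, holds 2 matches, while Gars (glycine), Iars (isoleucine), Tars (threonine) and Yars (tyrosine) hold 1 each. A match describes letters in this window and is not a measured binding site.

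The first comparison asked whether adding the factor H left the synthetase mRNAs different. Of 37 synthetase genes, 0 passed an adjusted p of 0.05 between OSKH and OSK iPSCs in limma, where 0% of all features did, and 0 had an unadjusted p under 0.05, against 1470 of 22685 features (6.48%). The 4 OSKH arrays and the 3 OSK arrays overlapped for all 37, while they did not overlap for 7.34% of features (OSKH higher for 3.15% and lower for 4.19%). Cytosolic enzymes had a median difference of -0.025 (8 higher and 13 lower in OSKH, between -0.20 and 0.12), mitochondrial ones -0.033 (7 higher and 9 lower, between -0.37 and 0.089) and all features -0.013. The 95% interval of each difference held 0. It lay within 0.5 log2 units of 0, or 1.41-fold, for 36 genes, and only that of Mars2 reached beyond, at -0.87 to 0.14. A 2-fold difference lay outside the interval of all 37, and smaller ones within the intervals were not detectable with these arrays.

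**Figure D1:**
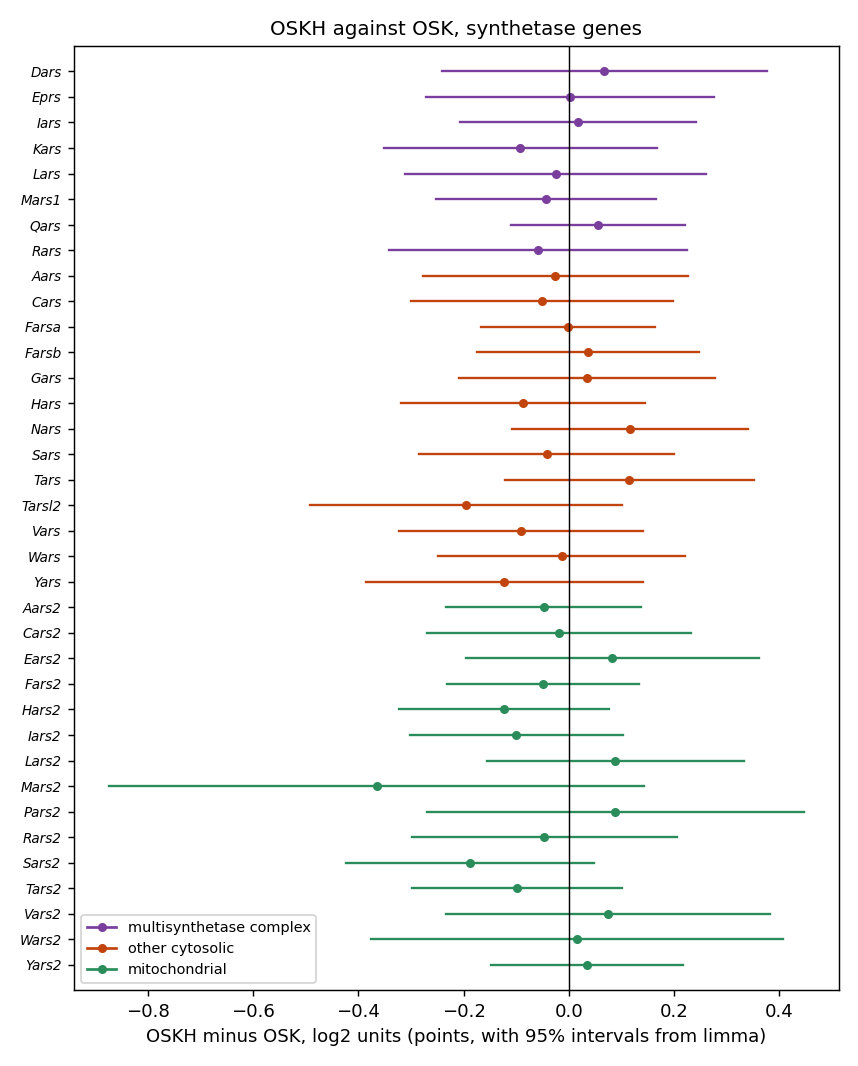
OSKH minus OSK in log2 units for 36 of the 37 synthetase genes tested (points, with 95% intervals from limma, 4 OSKH and 3 OSK arrays), in 3 colours for the multisynthetase complex, other cytosolic and mitochondrial enzymes. Every interval drawn crosses 0, and that of Mars2 is the widest.

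Most synthetases also varied little from array to array, the cytosolic ones less than the mitochondrial ones. Over the 7 iPSC arrays the range from lowest to highest had a median of 0.32 log2 units for the 37 genes, 0.57 for all features and 0.38 for the 11499 features whose mean level lay above 0. The median was 0.31 for the 21 cytosolic genes and 0.37 for the 16 mitochondrial genes, the latter close to that of the features above 0. The range stayed under 0.5 in 33 of 37 genes (89.2%), compared with 43.6% of all features and 65.4% of the features above 0. By form it did so in 95.2% of cytosolic and 81.2% of mitochondrial genes. Mars2 alone exceeded 1 log2 unit. Farsa, a catalytic subunit of the cytosolic phenylalanine enzyme, had the narrowest range, 0.098, with levels of 4.34, 4.30, 4.32 and 4.25 on OSKH 1 to 4, 4.27, 4.29 and 4.34 on OSK 1 to 3 and 4.52 on ESC. The share under 0.5 was as high in other genes of translation. The range was under 0.5 in 6 of 6 cytosolic elongation factors (median 0.18), 14 of 15 genes of mitochondrial translation (0.37) and 3 of 3 scaffolds (0.29). It was so in 4 of 7 genes for eIF2alpha, its kinases and its phosphatase and in 10 of 29 genes that respond to Atf4. No test was made of these shares.

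**Figure D2:**
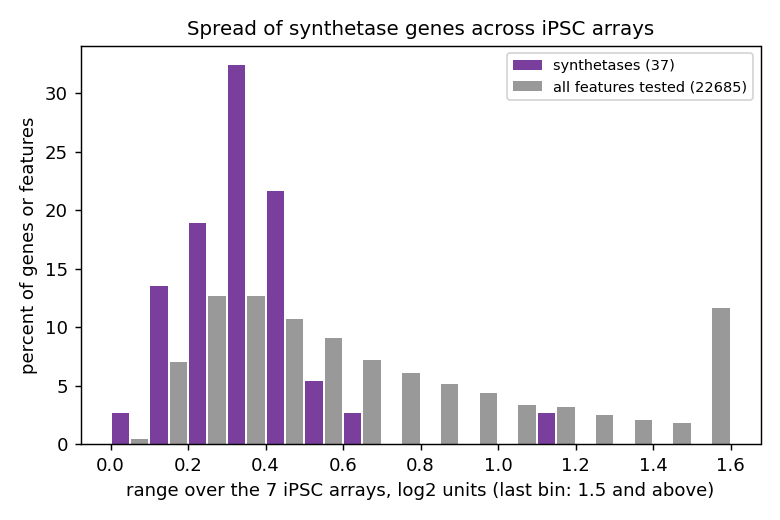
Range over the 7 iPSC arrays, in log2 units, as percent of the 37 synthetase genes (purple) and of all 22685 features tested (grey), in bins of 0.1 with everything from 1.5 upwards in the last bin. Of the 37 synthetases 33 lie below 0.5, and 11.6% of all features lie in the last.

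Among the 8 enzymes of the multisynthetase complex, 4 were higher and 4 lower in OSKH, with a median difference of -0.012. Dars, the aspartate enzyme, was at 1.14, 0.87, 0.77 and 0.63 on OSKH 1 to 4, against 0.86, 0.78 and 0.72 on OSK 1 to 3 and 0.90 on ESC. The OSKH arrays thus spanned the whole OSK range, and OSKH exceeded OSK by 0.068 ± 0.13 (SE; limma adjusted p = 0.958), while the value was -0.16 with slide row as a block. Eprs, which carries the glutamate and proline activities in 1 chain, was at 3.00, 2.75, 2.61 and 2.59 on the OSKH arrays, against 2.76, 2.70 and 2.74 on the OSK arrays and 2.93 on ESC. Its group means were nearly equal, with a difference of 0.0013 ± 0.12, and OSKH 1 stood highest, as it did for Dars. Rars, the arginine enzyme, also peaked there, at 1.15, 0.99, 0.79 and 0.75 on OSKH 1 to 4, against 1.07, 0.98 and 0.89 on OSK 1 to 3 and 1.01 on ESC.

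Lars, the leucine enzyme that also acts as a leucine sensor for mTORC1, was at 5.49, 5.39, 5.44 and 5.09 on OSKH 1 to 4, against 5.26, 5.47 and 5.41 on OSK 1 to 3 and 5.19 on ESC. Here OSKH 4 alone lay below the OSK range. Kars, the lysine enzyme, differed in which array was low. It was at 6.41, 6.51, 6.11 and 6.28 on the OSKH arrays, against 6.44, 6.42 and 6.40 on the OSK arrays and 6.42 on ESC, with the lowest value on OSKH 3. The OSK arrays lay closer together than the OSKH arrays for both Kars (SD 0.016, n = 3, against 0.17, n = 4) and Dars. Iars, Qars (glutamine) and Mars1 (methionine) had iPSC ranges of 0.26, 0.13 and 0.20, and differences of 0.017, 0.056 and -0.043.

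Of the scaffolds of the complex, 0 of 3 passed. Aimp1 differed by 0.030 ± 0.078 and Aimp2 by 0.051 ± 0.096. Eef1e1 was at 3.18, 3.50, 3.27 and 3.24 on OSKH 1 to 4, against 3.55, 3.50 and 3.51 on OSK 1 to 3 and 3.56 on ESC. Every OSKH array lay below every OSK array for it, as for 4.19% of all features. The margin was narrow, with 3.501 on OSKH 2 and 3.503 on OSK 2. The Eef1e1 difference of -0.22 ± 0.097 did not pass (limma adjusted p = 0.767).

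Outside the complex, Nars (asparagine) and Tars were the cytosolic genes with the smallest p among those higher in OSKH. Nars was at 3.94, 3.90, 3.92 and 3.74 on OSKH 1 to 4, against 3.68, 3.71 and 3.90 on OSK 1 to 3 and 3.69 on ESC. Tars was at 5.38, 5.45, 5.48 and 5.24 on the OSKH arrays, against 5.17, 5.22 and 5.41 on the OSK arrays and 5.34 on ESC. Both overlapped through OSK 3 and OSKH 4, with differences of 0.12 ± 0.094 and 0.12 ± 0.10 (limma adjusted p = 0.894 for Nars). Tarsl2, a second cytosolic threonine enzyme, went the other way, at 0.52, 0.90, 0.64 and 0.47 on OSKH 1 to 4, against 0.78, 0.76 and 0.94 on OSK 1 to 3 and 0.52 on ESC. OSKH 2 reached into the OSK range, and the difference of -0.20 ± 0.12 did not pass (limma adjusted p = 0.851). With slide row as a block, which sets OSKH 4 alone against OSK 1 to 3, Nars was at -0.024, Tars at -0.034 and Gars at -0.067.

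Sars, the serine enzyme, was at 5.91, 5.75, 5.78 and 5.54 on OSKH 1 to 4, against 5.75, 5.79 and 5.82 on OSK 1 to 3 and 5.66 on ESC, so that OSKH held both the highest and the lowest iPSC value. Yars was between -1.19 and -1.001 on the OSKH arrays, against -1.18, -0.87 and -0.85 on the OSK arrays and -1.04 on ESC. OSKH 4, OSK 1 and OSKH 1 were its 3 lowest iPSC arrays, so that low values came from both groups. Gars, which serves both compartments from 1 gene as Kars does, was at 7.93, 8.07, 8.07 and 7.89 on OSKH 1 to 4, against 7.80, 7.96 and 8.10 on OSK 1 to 3 and 8.00 on ESC, a difference of 0.034 ± 0.10. The remaining cytosolic genes, Aars, Cars (cysteine), Farsb, Hars (histidine), Vars (valine) and Wars (tryptophan), differed by -0.091 to 0.036.

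**Figure D3:**
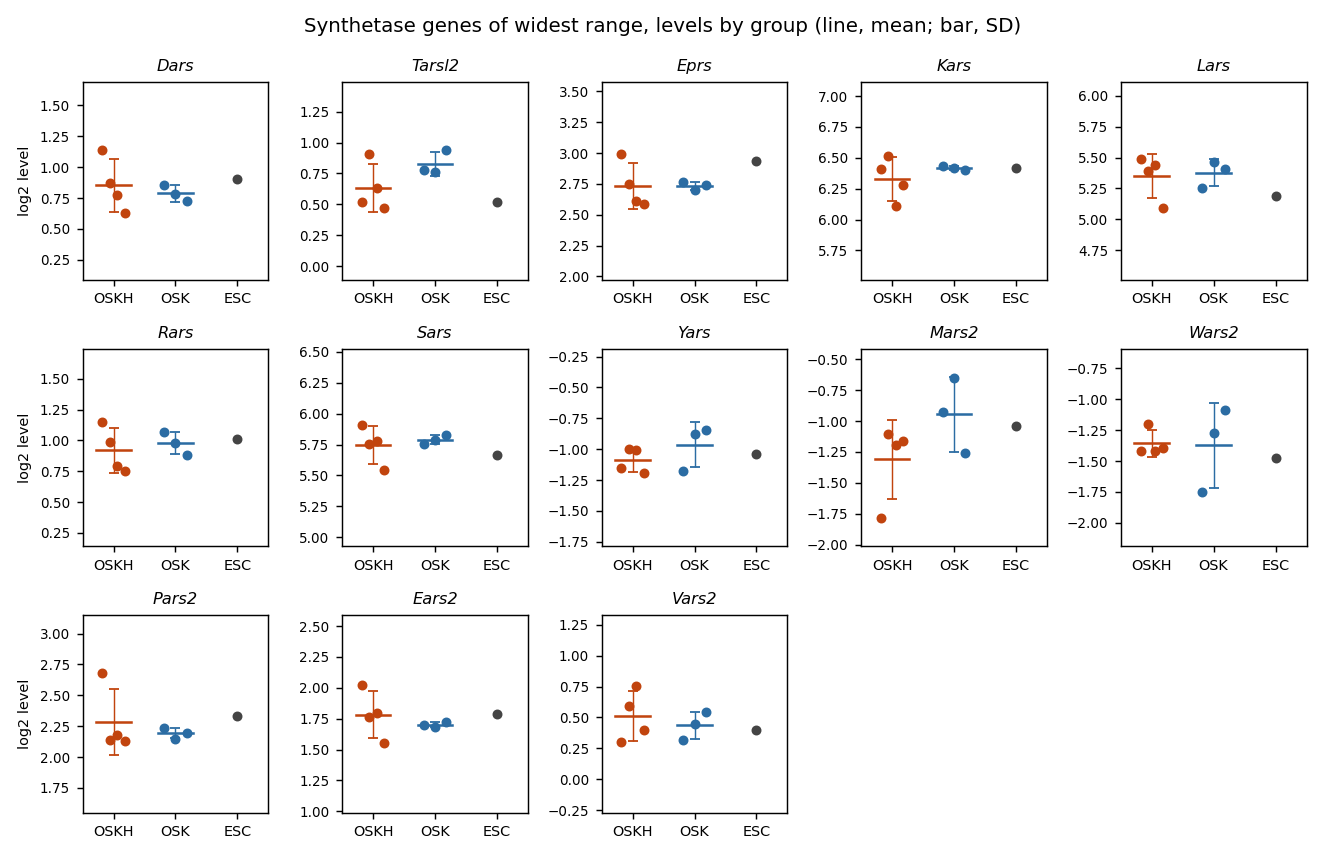
Log2 level relative to the array's 75th percentile for the 8 cytosolic genes of widest iPSC range and 5 of the 6 such mitochondrial genes, by group (OSKH orange, OSK blue, ESC grey; points are arrays in number order, lines are means and bars SD). Each panel spans the same height in log2 units, and the groups overlap in all of them.

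The mitochondrial enzymes held the genes of widest range. Mars2, the mitochondrial methionine enzyme, was at -1.79, -1.10, -1.19 and -1.16 on OSKH 1 to 4, against -0.93, -0.65 and -1.26 on OSK 1 to 3 and -1.04 on ESC. OSKH 1 was lowest and OSK 2 highest, and the difference of -0.37 ± 0.21 had a limma adjusted p of 0.845. Sars2 (serine) had the smallest p of the 37 genes, with 2.34, 2.30, 2.12 and 2.07 on the OSKH arrays, against 2.33, 2.48 and 2.38 on the OSK arrays and 2.33 on ESC. OSKH 1 overlapped the OSK range, and the difference was -0.19 ± 0.099 (limma adjusted p = 0.826). Wars2 (tryptophan) was at -1.42, -1.20, -1.42 and -1.40 on OSKH 1 to 4, against -1.75, -1.28 and -1.09 on OSK 1 to 3 and -1.47 on ESC. Its spread came from the OSK arrays, which held both extremes.

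Pars2, the proline enzyme, was at 2.68, 2.14, 2.18 and 2.13 on OSKH 1 to 4, against 2.23, 2.15 and 2.20 on OSK 1 to 3 and 2.33 on ESC. OSKH 1 stood apart there, but on the second, dimmer probe of the gene OSKH 1 was at -3.40, within the -3.74 to -3.22 of the iPSC arrays. Ears2 (glutamate) was at 2.02, 1.76, 1.80 and 1.55 on OSKH 1 to 4, against 1.70, 1.68 and 1.73 on OSK 1 to 3 and 1.79 on ESC, with OSKH 1 highest and OSKH 4 lowest. With slide row as a block, Pars2 differed by -0.065 and Ears2 by -0.15, where without it they differed by 0.089 and 0.083.

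Lars2 (leucine) was at 2.50, 2.28, 2.51 and 2.19 on OSKH 1 to 4, against 2.28, 2.28 and 2.28 on OSK 1 to 3 and 2.19 on ESC. Its difference was 0.089 ± 0.10, and -0.088 with slide row as a block. Vars2 (valine) was at 0.30, 0.59, 0.75 and 0.40 on the OSKH arrays, against 0.32, 0.45 and 0.54 on the OSK arrays and 0.40 on ESC, a difference of 0.075 that was -0.040 with slide row as a block. The other mitochondrial genes tested, Aars2, Cars2, Fars2, Hars2, Iars2, Rars2, Tars2 and Yars2, differed by -0.12 to 0.035.

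Mammalian mitochondria make glutaminyl-tRNA without a glutamine synthetase of their own, through the amidotransferase of Qrsl1, Gatb and Gatc. Qrsl1 was at 1.29, 1.44, 1.29 and 1.28 on OSKH 1 to 4, against 1.57, 1.55 and 1.53 on OSK 1 to 3 and 1.47 on ESC. The groups did not overlap, and the difference of -0.23 ± 0.076 did not pass (limma adjusted p = 0.732). Of 15 genes of the amidotransferase and mitochondrial translation, 0 passed, and 4 were higher and 11 lower in OSKH, with a median of -0.060. Qrsl1, Gfm1 and Tufm, the last 2 being elongation factors, were the 3 of 15 whose OSKH arrays all lay below OSK, as they did for 4.19% of all features.

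Within OSKH, 1 array lay low for nearly all synthetases. On OSKH 4, all 21 cytosolic and 15 of 16 mitochondrial synthetases lay below their mean over the 7 iPSC arrays, together 36 of 37, against 57.1% of all features. Of the 11499 features of mean level above 0, 7358 lay below. The median deviation was -0.14 for the cytosolic and -0.13 for the mitochondrial genes on OSKH 4, compared with -0.033 for all features and -0.046 for features of mean level above 0. These values depended on the scaling. With the 75th percentile taken over probes above background on all arrays, 20 of 21 cytosolic and 11 of 16 mitochondrial genes lay below, with medians of -0.087 and -0.076 where all features had 0.018. With quantile normalization 19 of 21 and 13 of 16 lay below, with medians of -0.067 and -0.087 where all features had -0.012. Hars2, the exception, was at 2.27, 2.23, 2.25 and 2.38 on OSKH 1 to 4. OSKH 4 was the lowest of the 4 OSKH arrays in 28 of 37 genes (29.3% of all features) and the lowest of all 7 iPSC arrays in 22 (21.7% of all features). Relative to the mean of OSKH 1 to 3, OSKH 4 differed by -0.35 to -0.062 in the 21 cytosolic genes, all lower, and 34 of the 37 synthetases were lower (57% of all features). Of the 8 second probes, which took no part in choosing a gene's value, 6 lay below their iPSC mean on OSKH 4. Related sets were low there as well. Of 15 genes of the amidotransferase and mitochondrial translation, 2 lay above the iPSC mean (median -0.14), and of 10 Myc and mTORC1 regulators 0 did (-0.17). Of the 3 scaffolds 0 lay above, and of 7 genes for eIF2alpha, its kinases and its phosphatase 1 did. The cytosolic elongation factors had 2 of 6 above (-0.057). This array was singled out after the values were seen. Dixon's limit, applied to the OSKH arrays in a closing section, uses the same values and is no independent test of it.

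**Figure D4:**
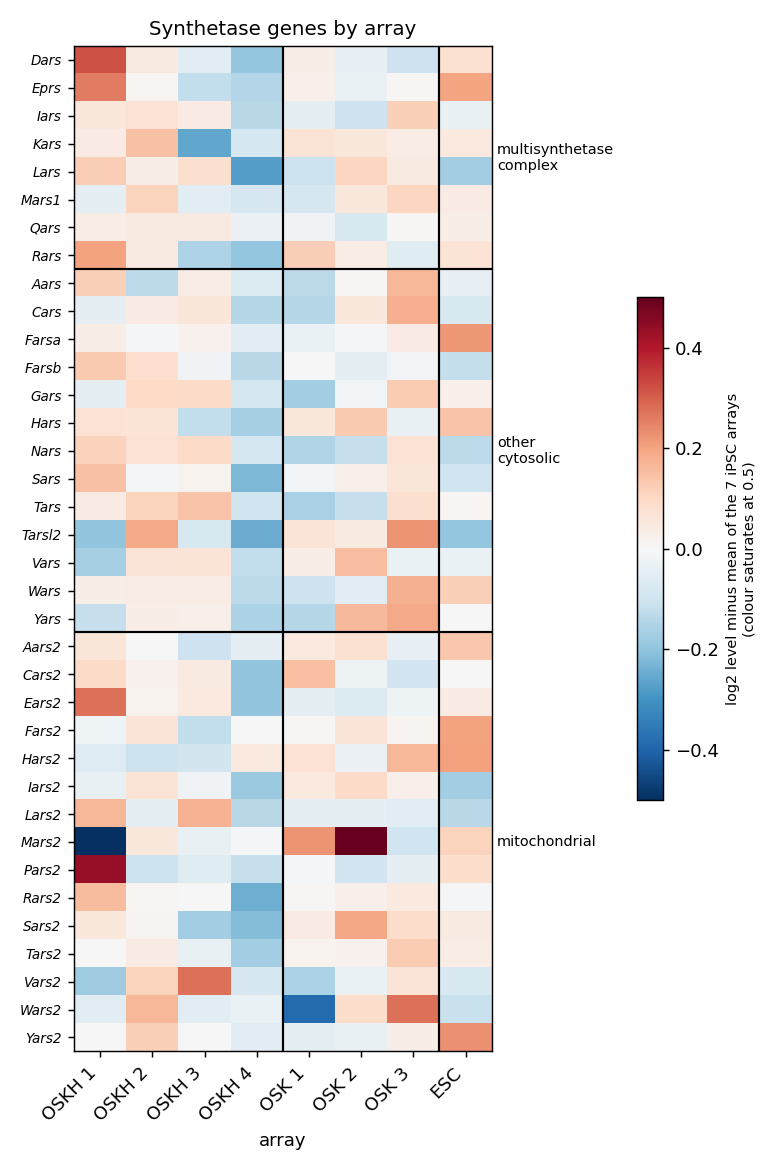
Log2 level of 36 of the 37 synthetase genes (rows, in 3 blocks for the multisynthetase complex, other cytosolic and mitochondrial enzymes) on each array (columns: OSKH 1 to 4, OSK 1 to 3, ESC), minus the gene's mean over the 7 iPSC arrays, with colour saturating at 0.5. On OSKH 4 values lie below the mean (blue, some faintly) in every row drawn, with Hars2 the exception, and the strongest single cells are Mars2 and Pars2 on OSKH 1 and Mars2 on OSK 2.

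Some markers of other cell types stood high on OSKH 4. The 10 pluripotency markers had a summed level of 700 there, within 654 to 900 for the OSKH arrays, with 708 to 785 on the OSK arrays. Of the 10, 4 lay above their iPSC mean on OSKH 4. It was the highest OSKH array for 2 of them, Nanog and Lin28a, and the lowest for 4. All 7 trophectoderm markers tested lay above their iPSC mean on OSKH 4, as all 7 did on ESC. Their summed linear level, in multiples of the 75th percentile signal, was 77.5 on OSKH 4, 23.1 to 32 on the other OSKH arrays, 20.6 to 22.6 on the OSK arrays and 31.3 on ESC. Krt18, at 5.60, was the largest part of the sum on OSKH 4. Gata3 and Tfap2c were higher on OSKH 1 (-2.33 and 4.07) than on OSKH 4 (-2.46 and 3.62). All 4 primitive endoderm markers tested lay above their iPSC mean on OSKH 4 too. Of the 4, 1, Foxa2, was highest of the OSKH arrays there, at 4.03 against -2.86 to -1.24 on OSKH 1 to 3. Lama1 and Sox7 were higher on OSKH 1 and Dab2 on OSKH 3, while Gata4, Gata6, Sox17 and Pdgfra were well above background on at most 2 arrays. Elf5, of the trophectoderm, was well above background on 0 arrays. Of the 7 fibroblast and feeder markers tested, 6 were above the mean, while Lum, Pdgfrb and Lox were above background on at most 2 arrays. The summed fibroblast level, which Fn1 dominates, was 72.9 to 92.5 on the OSKH arrays, 73.3 to 94.9 on the OSK arrays and 96.7 on ESC. Col1a1 was at 1.72 on OSKH 4, -1.38 to -1.14 on OSKH 1 to 3, -1.86 to -1.01 on the OSK arrays and 1.34 on ESC.

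The part of such cells in the low synthetase values was not tested. In bulk RNA, fewer cells of a type and less RNA per cell cannot be told apart. On ESC, where all 7 fibroblast markers also lay above the iPSC mean, the cytosolic synthetases had a median deviation of 0.010 with 11 of 21 above the iPSC mean. All features had a median of 0.050 on ESC, with 13466 of 22685 above. OSKH 4 was also the only OSKH array in the second row of the slide. The 3 OSK arrays of that row had cytosolic medians of -0.032, 0.011 and 0.060.

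Without OSKH 4 the group comparison leaned the other way, with a median difference of 0.027 for cytosolic genes (12 of 21 higher in OSKH) and 0.028 for mitochondrial genes (9 of 16 higher). With OSKH 4 alone against OSK 1 to 3, in the fit with slide row as a block, 1 of 37 genes was higher and 36 were lower, with medians of -0.14 and -0.12. Of the 15 genes higher in OSKH without the block, 14 changed sign, and only Qars stayed above 0, at 0.004. The share of all features lower in that fit is not given here. Relative to the mean of OSKH 1 to 3, OSKH 4 was lower in 57% of all features.

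Genes that respond to Atf4 were followed beside the synthetases. Of 29 such genes tested, 0 passed between OSKH and OSK, 18 being higher and 11 lower in OSKH, with a median of 0.036. Their range over the iPSC arrays had a median of 0.76 log2 units, where the synthetases had 0.32. On OSKH 1, 26 of 29 lay above their iPSC mean, with a median of 0.37. Chac1, a glutathione-degrading enzyme, was at 6.02, 3.39, 3.13 and 2.82 on OSKH 1 to 4, against 2.98, 3.29 and 3.82 on OSK 1 to 3 and 2.70 on ESC. Ddit3, the stress transcription factor CHOP, was at 1.29, -1.87, -1.86 and -1.51 on the OSKH arrays, against -1.49, -1.33 and -1.59 on the OSK arrays and -1.63 on ESC. Atf3, another stress-induced factor, stood likewise at 0.51 on OSKH 1 and between -2.57 and -1.49 on the other 7 arrays.

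The synthetases on OSKH 1 departed far less from the iPSC mean. The cytosolic genes had a median deviation of 0.042 there, with 15 of 21 above, and the mitochondrial genes 0.026, with 8 of 16 above. OSKH 1 was the highest OSKH array for 17 of 37 synthetases, against 33.5% of all features and 22 of 29 Atf4 genes. Within the multisynthetase complex, 7 of 8 enzymes lay above the mean of OSKH 2 to 4 on OSKH 1, by a median of 0.14, and Dars, at 0.38, by the most. The 13 cytosolic enzymes outside the complex had a median of 0.046 by that measure, with 7 of 13 higher. Among the OSK arrays, the 13 cytosolic enzymes outside the complex had a median of -0.13 on OSK 1 relative to the other OSK arrays (11 of 13 lower) and 0.18 on OSK 3 (11 of 13 higher). The 8 enzymes of the complex did not move in this way, with medians of 0.023 on OSK 1 (5 of 8 higher) and 0.026 on OSK 3 (5 of 8 higher). The Atf4 genes were at -0.23 and 0.23 on those arrays by the same measure, and all features at -0.020 and 0.050. On OSKH 4 the Atf4 genes had a median of -0.30 against the iPSC mean, with 25 of 29 below it.

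**Figure D5:**
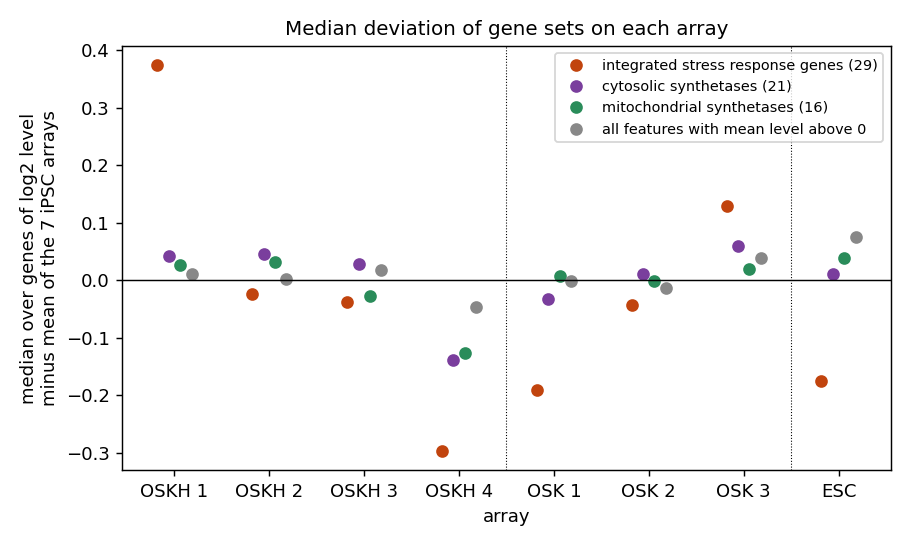
Median over genes of the log2 level minus the gene's mean over the 7 iPSC arrays, by array (OSKH 1 to 4, OSK 1 to 3, ESC), for the integrated stress response (Atf4) genes, the cytosolic and mitochondrial synthetases and all features of mean level above 0. Both synthetase sets are lowest on OSKH 4, at -0.14 and -0.13, and the Atf4 genes run from 0.37 on OSKH 1 to -0.30 on OSKH 4.

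The 5 synthetase genes whose promoter holds TGATGNAA, printed above, were compared by array with the 9 cytosolic genes that have a window without it. On OSK 1 all 5 genes with the letters lay below their iPSC mean (median -0.14), and 5 of the 9 without them did (median near 0), as did 11771 of all 22685 features. On OSK 3 all 5 lay above it (median 0.13), against 7 of the 9 (median 0.036) and 13791 of all 22685 features. On OSKH 4 the medians were -0.10 for the 5 and -0.14 for the 9, and all 14 genes lay below, as did 57.1% of all features. On OSKH 1, where the Atf4 genes were highest, the medians were 0.042 and 0.041. Of the genes with the letters only Iars belongs to the multisynthetase complex, while those without them include Dars, Eprs, Kars, Mars1 and Qars of the complex. The split by letters thus overlaps with the split by complex given above, and the part of each was not tested. These are descriptions of single arrays, without a test.

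The iPSC groups were each set against the single ESC array, which both comparisons share and which adds nothing to the spread. Of 37 synthetases, 0 passed in either comparison, as did 0% of all features, and 0 had an unadjusted p under 0.05 (4.36% of features for OSKH minus ESC and 6.02% for OSK minus ESC). The median difference from ESC was -0.007 for cytosolic and -0.032 for mitochondrial genes in OSKH iPSCs, and 0.003 and 0.022 in OSK iPSCs. All features lay at -0.054 and -0.046 by the same measure. With quantile normalization the cytosolic medians were 0.104 in OSKH and 0.085 in OSK iPSCs, while those of all features were -0.011 and -0.007.

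ESC lay inside the range of the 7 iPSC arrays for 31 synthetases, above all 7 for Aars2, Fars2, Farsa, Hars, Hars2 and Yars2, and below all 7 for 0. Of all features, 26.6% lay outside, 18.5% above and 8.09% below. Farsa, whose values are given above, differed by -0.22 ± 0.10 in OSKH iPSCs and by -0.22 ± 0.11 in OSK iPSCs relative to ESC. Its second probe was at 2.40, 2.42, 2.28 and 2.26 on OSKH 1 to 4, 2.42, 2.48 and 2.42 on OSK 1 to 3 and 2.52 on ESC, again highest on ESC. Fars2, the single-chain mitochondrial phenylalanine enzyme, was at 3.43, 3.52, 3.33 and 3.45 on OSKH 1 to 4, 3.46, 3.52 and 3.47 on OSK 1 to 3 and 3.66 on ESC. Farsa and Fars2 thus stood above the iPSC range on ESC, while Farsb, the partner subunit of Farsa, was at 4.19 there, lower than on 6 of the 7 iPSC arrays.

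Hars2 was at 2.23 to 2.38 on the OSKH arrays and 2.41, 2.31 and 2.50 on OSK 1 to 3, against 2.54 on ESC, a difference of -0.26 ± 0.12 for OSKH minus ESC. Yars2 (tyrosine) was at 3.38, 3.50, 3.38 and 3.32 on OSKH 1 to 4, 3.33, 3.34 and 3.41 on OSK 1 to 3 and 3.61 on ESC, and OSK iPSCs differed by -0.25 ± 0.12. In the other direction, Iars2 (isoleucine) was at 1.374, 1.479, 1.393 and 1.224 on OSKH 1 to 4, 1.461, 1.505 and 1.437 on OSK 1 to 3 and 1.236 on ESC, so that ESC lay at the level of OSKH 4. For OSK minus ESC, Tarsl2 differed by 0.31 ± 0.19 and Lars by 0.19 ± 0.18. None of these differences passed, with a limma adjusted p for Farsa of 0.999 in OSKH and 0.832 in OSK iPSCs.

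Other genes of translation and of synthetase control gave 0 calls between OSKH and OSK as well. The 6 cytosolic elongation factors had a median difference of -0.011 and iPSC ranges of 0.15 to 0.39. The 6 editing and deacylase proteins, which clear wrongly charged transfer RNAs, had a median of -0.018, and the 6 genes of the selenocysteine route 0.083. Of the 7 genes for eIF2alpha, its kinases and its phosphatase subunits, 5 were higher in OSKH (median 0.072). Eif2ak2, the double-stranded RNA kinase PKR, was at 0.24, 0.20, 0.40 and -0.93 on OSKH 1 to 4, against -0.23, -0.75 and -0.73 on OSK 1 to 3 and 0.46 on ESC, so that its high values all lay in the first slide row.

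Among 10 Myc and mTORC1 regulators the median was -0.053. Myc, a transcription factor known to drive synthetase and ribosome genes, was at 1.05, 1.08, 0.61 and 1.16 on OSKH 1 to 4, against 1.46, 1.73 and 1.42 on OSK 1 to 3 and 1.62 on ESC. Every OSKH array lay below every OSK array for Myc, 1 of the 10 regulators to do so, as for 4.19% of all features. The difference of -0.56 ± 0.16 did not pass (limma unadjusted p = 0.00907, adjusted p = 0.732). Mycn, another member of the family, differed by 0.023 ± 0.16.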

How the data were processed

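Total RNA of each sample was labelled with Cy3 and hybridised to its own array, per the labels. Spots were quantified with Agilent Feature Extraction 11.5.1.1, per the submitters' processing notes, and the deposited intensity is a background-subtracted, detrended processed signal, not scaled between arrays, per the file headers. The deposited log2 value table differed from log2 of that signal by a constant for each array (100% of probes agree within 0.01). It is not centred per gene, and its column medians ran from -3.71 to -3.60. Flags deposited with each spot are 0 or 1.

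The value used was log2 processed signal minus the array's 75th percentile, which was a signal of 424 to 501. Control and outlier-flagged spots were left out, and 0 probes were saturated. The share of probes above background was 51.4% to 59.0%. Probes were named through RefSeq accessions in a GRCm38.p6 table (27650 named, 28017 not), so symbols can be old. The array annotation refers to mm9. Probes had to pass the background flag on 3 or more of the 8 arrays, and the brightest stood for its gene.

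OSKH, OSK and ESC were fitted together in limma 3.58.1 under R 4.3.3, with Benjamini-Hochberg adjustment over 22685 features, a threshold of 0.05, and 5 residual and 1.85 prior degrees of freedom. The test was run first on simulated data. The number of arrays limits the precision. All arrays lay on 1 slide, ESC and OSKH 1 to 3 in row 1 and OSKH 4 and OSK 1 to 3 in row 2. Same-numbered OSKH and OSK arrays, 1 to 3, shared a slide column and deviated together (correlations 0.465, 0.259 and 0.450), so the number was also used as a block. Alternatives covered normexp, other scalings, filters, the probe rule, row and number blocks and each array left out. The files used hold no mean spot signal, so normexp ran on median signals. Members and lists were chosen with earlier results of these data known. Named genes were the 8 cytosolic and 6 mitochondrial of widest iPSC range, the 3 of smallest p in each direction per comparison, and of each list the 3 of smallest p and the 3 of widest range. 1 of the tested synthetases enters all counts and medians but is not reported here by itself. Genes named beyond this rule were chosen after their values were seen.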

Additional observations from a re-analysis of the deposited data

Results flagged for a closer look

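In 7 of 38 items examined within OSKH (36 genes and the medians of the cytosolic and mitochondrial sets), 1 of the 4 arrays lay farther from the others than Dixon's 95% limit for 4 values allows, which chance passes in about 1 of 20 groups. The genes share arrays, so these are not independent. OSKH 4 was singled out from these same values, so its items here add no separate test of it. On OSKH 4, Iars was at 5.108 (other OSKH arrays 5.288 to 5.319), Qars at 5.402 (5.466 to 5.474) and Wars at 5.465 (5.622 to 5.633). On the second, dimmer probe of Wars, OSKH 4 was at 1.671, within the 1.528 to 1.95 of the other OSKH arrays. The cytosolic median deviation was -0.138 on OSKH 4, and 0.028 to 0.045 on OSKH 1 to 3. On OSKH 1, Mars2 was at -1.787 (others -1.193 to -1.102) and Pars2 at 2.681 (others 2.129 to 2.182). On OSKH 2, Wars2 was at -1.196 (others -1.418 to -1.397). On the second, dimmer probe of Wars2, OSKH 2 was at -2.84, within the -3.047 to -2.769 of the others.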

How the results depend on the processing

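No synthetase passed an adjusted p of 0.05 under any of the 16 alternatives for OSKH minus OSK or the 15 for each ESC comparison. With slide row as a block, OSKH minus OSK rests on OSKH 4 against OSK 1 to 3 and called 47 features (0 otherwise), with medians of -0.139 for cytosolic and -0.118 for mitochondrial genes, and 14 of 37 synthetases changed sign, among them Nars (-0.024), Tars (-0.034), Lars2 (-0.088), Dars (-0.156), Ears2 (-0.149), Eprs (-0.145), Iars (-0.129), Farsb (-0.117), Gars (-0.067), Pars2 (-0.065), Vars2 (-0.040), Yars2 (-0.038) and Wars2 (-0.025). In the same fit OSK minus ESC called 38 features, with medians of 0.184 and 0.190, and OSKH minus ESC had a mitochondrial median of 0.026. OSK lay wholly in row 2 and ESC in row 1, so only OSKH 4 against OSKH 1 to 3 set the row term. That shift had medians of -0.172 for cytosolic and -0.177 for mitochondrial genes, and the fit takes it off OSK minus ESC. Without the block the OSK minus ESC medians were 0.003 and 0.022. The row-block values thus carry the low OSKH 4 levels and cannot show whether OSK exceeded ESC. The replicate block by array number, which leaves out OSKH 4 and ESC, gave a mitochondrial median of 0.028 for OSKH minus OSK and changed no call. Leaving out 1 array at a time gave medians of -0.060 (without OSK 1) to 0.027 (without OSKH 4; 0.019 without OSK 3) for cytosolic and -0.051 (without OSKH 1) to 0.028 (without OSKH 4) for mitochondrial genes. For OSKH minus ESC the mitochondrial median ran between -0.088 (without OSKH 1) and 0.026 (without OSKH 4), and the cytosolic one between -0.039 and 0.022 (without OSKH 4). Without OSK 3, the OSK minus ESC medians were -0.019 and -0.017, and without OSK 1 they were 0.039 and 0.042. Quantile normalization gave cytosolic medians of 0.104 for OSKH and 0.085 for OSK minus ESC, and the percentile over probes above background on all arrays a mitochondrial median of 0.032 for OSKH minus ESC. Without the filter on dim probes, 11 features were called for OSKH minus ESC and 9 for OSK minus ESC. The causes were not tested. For the 6 genes of smallest p in each comparison, 93 of 96 values for OSKH minus OSK and all 90 for each ESC comparison kept direction and side of the threshold. Over all 37 genes, up to 6 changed sign for OSKH minus OSK under the alternatives other than the row block, up to 10 for OSKH minus ESC, and up to 11 for OSK minus ESC, there with the row block. The median deviations on OSKH 4 stayed below 0 under each scaling, between -0.142 (normexp) and -0.067 (quantile) for cytosolic genes and between -0.127 and -0.076 (percentile over probes above background on all arrays, 11 of 16 below) for mitochondrial genes.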
